A study of Caenorhabditis elegans with 12 samples.

Results

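Mitochondrial ribosomal protein genes were followed in whole Caenorhabditis elegans across the 4 groups of an mRNA sequencing experiment. They were taken as all genes with a symbol starting mrpl- (large subunit) or mrps- (small subunit) and at least 10 reads in at least 3 libraries. Of 45132 genes in the count table, 70 met the rule, 41 for the large and 29 for the small subunit, and all 70 were among the 12850 genes that passed the filter on low counts and were tested. The symbol of T14B4.2, mrps-18.C, differs by a dot from that of C26E6.6, mrps-18C, and both were kept as separate genes.

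All worms carried the glp-4(bn2) mutation, with which the germline fails to proliferate at the restrictive temperature, and were collected whole on day 1 of adulthood. They were raised either on bacteria with the empty vector L4440 (control RNAi) or on prp-19 RNAi, and each was left untreated or was given atp-2 RNAi as well. Each of these 4 groups had 3 libraries. prp-19 encodes a component of the spliceosome, and the product of atp-2 is part of the mitochondrial ATP synthase. The labels give neither the timing nor the dilution of the second RNAi, and they do not say whether the replicates came from separate cultures, so p-values measure the spread between these libraries.

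Mitochondria hold their own ribosomes, which translate the few proteins encoded by mitochondrial DNA, all of them parts of the respiratory chain and the ATP synthase in animals. The small subunit binds the mRNA and reads its codons, and the large subunit joins the amino acids. Every protein of both subunits is encoded in the nucleus, made in the cytosol and imported, and in worms RNAi of mrps-5 and other mitochondrial ribosomal protein genes is known to induce the mitochondrial unfolded protein response and to extend lifespan.

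The RNAi targets were examined first. Counts of prp-19 were 170, 137 and 159 on control RNAi and 717, 354 and 315 in the libraries whose label names prp-19 RNAi (prp-19-labelled from here on), a log2 difference of 1.04 (SE 0.37, edgeR adjusted p = 0.0401). The transcript was therefore higher, not lower, where the label names its RNAi, with no overlap between the groups. With atp-2 RNAi prp-19 had 244, 235 and 202 counts on control RNAi and 345, 224 and 168 in the prp-19-labelled libraries. Those ranges overlapped, so the counts did not show a knockdown in either setting. Every direction below that is drawn between the labelled prp-19 and control libraries rests on the label alone. Counts of atp-2 were 10274, 9080 and 9123 on control RNAi and fell to 2327, 2114 and 2078 with atp-2 RNAi, a log2 change of -2.60 (SE 0.09, edgeR adjusted p = 8.68e-14). In the prp-19-labelled libraries they were 7621, 9073 and 9047 without and 4334, 3831 and 4644 with atp-2 RNAi, a log2 change of -1.01 (SE 0.09, edgeR adjusted p = 2.02e-07). The atp-2 transcript itself therefore fell less in the prp-19-labelled libraries, with a difference of 1.59 between the log2 changes (SE 0.12, edgeR adjusted p = 3.32e-08). Compared with control RNAi, it was lower with the prp-19 label without atp-2 RNAi (log2 -0.67, SE 0.08, edgeR adjusted p = 1.54e-06). With atp-2 RNAi in both groups it was higher with that label (log2 0.92, SE 0.09, edgeR adjusted p = 3.18e-08).

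Library totals lay between 6731808 and 8802767 counts. A mitochondrial ribosomal protein gene had from 23 to 608 counts in a library, and its mean count over libraries was 112.4 at the median gene, where the counting error alone is 9.43% of the value. The median coefficient of variation between the 3 libraries of a group was 9.28% to 10.4% in all groups but 1, near that counting error. With atp-2 RNAi on control RNAi it was 5.79%, below that error, which is taken at the mean count over all libraries. Levels are given as CPM, counts scaled to a common library size with TMM factors, which centre most genes on no change. Markers of body wall muscle, intestine, pharynx, neurons and adult cuticle were all detected, and no marker of the lists was at 0 in every library. The 15 germline and oocyte markers summed to 48.8 to 62.9 CPM on control RNAi, 79.3 to 79.6 with atp-2 RNAi, 180.5 to 210.3 in the prp-19-labelled libraries and 168.5 to 184.5 in those with both labels. The 4 markers of hypodermis and adult cuticle summed to 1468 to 1641, 2810 to 2982, 1975 to 2383 and 2476 to 2558 CPM in the same order. Pharynx markers (5) summed to 90.1 to 174.4, 212.6 to 260.9, 276.1 to 303.7 and 293.5 to 391.2 CPM, and intestine markers (7) to 5715 to 6753, 5307 to 5427, 3538 to 5574 and 5031 to 5157 CPM. Tested were 14 germline, 7 intestine, 6 muscle, 5 pharynx, 6 neuron and 4 cuticle markers. With atp-2 RNAi on control RNAi 5 germline, 2 cuticle, 2 pharynx, 2 neuron and 1 muscle marker rose and 3 intestine markers fell. Over all genes tested 17.0% rose and 17.1% fell. Without atp-2 RNAi 9 germline, 3 cuticle, 4 pharynx, 3 neuron and 1 intestine marker were higher with the prp-19 label. Lower were 4 intestine and 1 neuron marker, against 30.0% higher and 28.5% lower over all genes. With atp-2 RNAi in both groups 3 germline, 2 cuticle, 2 intestine and 1 pharynx marker were higher with the label. Lower were 3 intestine, 1 germline, 1 cuticle and 1 neuron marker, against 26.5% each way over all genes. The part of these tissue differences in the values below was not tested, and in whole worms fewer cells of a type and less RNA per cell cannot be told apart.

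Summed over the 41 large subunit genes, the level was 497.5, 510.6 and 531.6 CPM on control RNAi and 886.9, 862.9 and 862.8 CPM on control RNAi with atp-2 RNAi. In the prp-19-labelled libraries the sum was 505.0, 480.4 and 525.6 CPM, and in those with both labels it was 588.1, 577.1 and 543.6 CPM. The group with atp-2 RNAi on control RNAi stood apart from the other 3 groups, and the libraries with both labels lay above those labelled prp-19 RNAi without overlap. The 29 small subunit genes were likewise highest with atp-2 RNAi on control RNAi and next highest with both labels, with 396.0 ± 6.50, 668.5 ± 9.39, 402.9 ± 24.0 and 449.7 ± 12.3 CPM (mean ± SD, n = 3 each). The fold after atp-2 RNAi was 1.70 for the large and 1.69 for the small subunit on control RNAi, and 1.13 and 1.12 in the prp-19-labelled libraries.

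The balance of the subunits was compared as a ratio. The summed large subunit level divided by the summed small subunit level was 1.30 ± 0.0254 on control RNAi, 1.30 ± 0.0185 with atp-2 RNAi, 1.25 ± 0.0250 in the prp-19-labelled libraries and 1.27 ± 0.0449 in those with both labels (mean ± SD, n = 3). The range with atp-2 RNAi, 1.282 to 1.315, lay within that of control RNAi, 1.280 to 1.325, and the range with both labels, 1.236 to 1.318, overlapped all others. The 3 prp-19-labelled libraries, at 1.229 to 1.278, lay below every library of both groups on control RNAi, by a narrow margin, and this difference was not tested. These ratios describe mRNA and not assembled ribosomes. As a share of all counts the 70 genes held 0.0745% on control RNAi, 0.152% with atp-2 RNAi, 0.104% in the prp-19-labelled libraries and 0.111% with both labels.

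**Figure D1:**
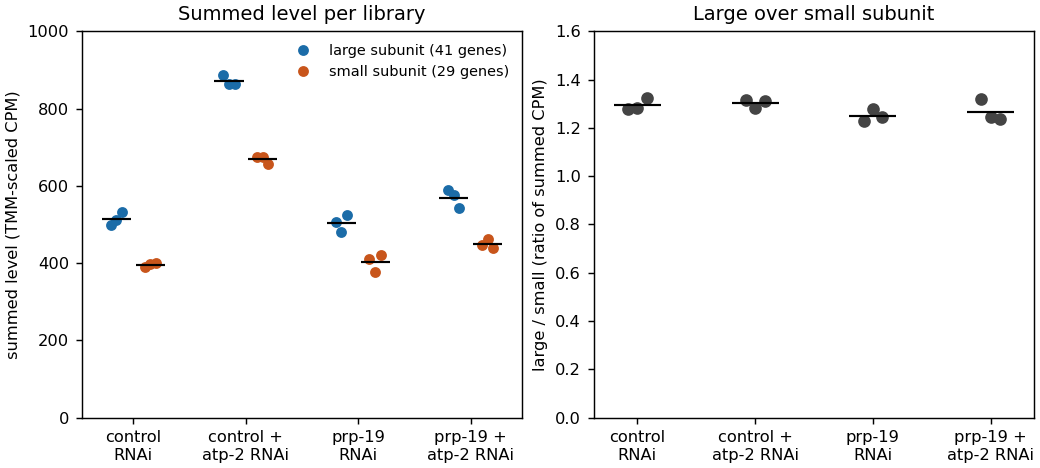
Summed TMM-scaled CPM of the large and small subunit genes in each of the 12 libraries (left) and the ratio of the sums (right). Points are libraries and horizontal bars are group means. Both sums are highest in the 3 libraries with atp-2 RNAi on control RNAi, and the ratio lies between 1.229 and 1.325 in every library.

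After atp-2 RNAi on control RNAi, 58 of the 70 genes rose and 0 fell (edgeR adjusted p under 0.05), 36 of 41 for the large and 22 of 29 for the small subunit. Over all genes tested 17.0% rose, 17.1% fell and 34.1% were called in either direction. The median log2 change was 0.71 over the large and 0.57 over the small subunit, against 0.03 over all genes. The lowest library with atp-2 RNAi was above the highest control library for 64 of the 70 genes, a separation seen upward in 25.3% and downward in 24.6% of all genes tested. A rise of at least 2-fold was called for 13 genes, against 4.54% of all genes tested, and the changes ran from -0.18 for mrps-18.C to 1.78 for mrps-14.

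Among small subunit genes mrps-14 had the largest rise. It encodes a protein whose bacterial counterpart binds the ribosomal RNA of the small subunit, and its gene lies on chromosome II at 10240277 to 10242490 on the minus strand (WBcel235). Its level was 18.3, 21.97 and 15.3 CPM on control RNAi and 69.5, 62.9 and 58.4 CPM with atp-2 RNAi. The groups lay far apart, and the log2 change was 1.78 (SE 0.13, edgeR adjusted p = 3.14e-09). The next was mrps-11, another protein with a bacterial counterpart, at 20.2, 21.1 and 21.2 CPM on control RNAi and 44.5, 48.4 and 46.9 CPM with atp-2 RNAi, a log2 change of 1.16 (SE 0.09, edgeR adjusted p = 6.98e-09). mrps-11 overlaps inx-11 in the annotation, and strand handling in the counting is not given in the sources used here, so its reads may include some of inx-11. mrps-5 rose from 22.8, 26.6 and 22.8 CPM to 50.5, 47.8 and 49.0 CPM, a log2 change of 1.03 (SE 0.09, edgeR adjusted p = 4.27e-08). In mrps-5 too, every library with atp-2 RNAi was above every control library.

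Among large subunit genes the highest changes were those of mrpl-14 and mrpl-37. mrpl-14 is the table's name for F45E12.5, on chromosome II at 7308699 to 7310115 on the minus strand, a gene that carries no symbol in the Ensembl and RefSeq annotations and overlaps brf-1. It had 21.5, 21.97 and 22.2 CPM on control RNAi and 52.6, 49.5 and 54.2 CPM with atp-2 RNAi, a log2 change of 1.25 (SE 0.10, edgeR adjusted p = 4.96e-09). The 3 control values differed by less than 1 CPM, and those with atp-2 RNAi were all more than 2-fold higher. mrpl-37, whose human counterpart belongs to the proteins found in mitochondrial but not bacterial ribosomes, rose from 18.5, 17.9 and 16.2 to 43.5, 40.5 and 39.5 CPM, a log2 change of 1.23 (SE 0.11, edgeR adjusted p = 3.26e-08).

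Not called were 12 genes, 5 of the large and 7 of the small subunit. The smallest large subunit changes were those of mrpl-15, at 17.2, 16.5 and 22.2 CPM on control RNAi and 24.7, 20.6 and 22.8 CPM with atp-2 RNAi (log2 0.29, SE 0.12, edgeR adjusted p = 0.0801), and of mrpl-20 (log2 0.31, SE 0.13, edgeR adjusted p = 0.0664). The groups overlapped for mrpl-15 and did not for mrpl-20. Of the small subunit, mrps-23 had a log2 change of 0.02 (SE 0.17, edgeR adjusted p = 0.957) and mrps-18.C one of -0.18 (SE 0.16, edgeR adjusted p = 0.435). The level of mrps-18.C was 9.07, 8.33 and 6.88 CPM on control RNAi and 7.43, 6.64 and 7.49 CPM with atp-2 RNAi, the single gene of the 70 with a negative change. With libraries scaled by their totals its change was 0.09, and 68 of the 70 genes were called higher, because that scaling moves the median of all genes from 0.03 to 0.29. Of all genes, 41.9% were called in either direction with that scaling. Relative to the median of all genes, the large and small subunit medians were 0.68 and 0.55 under either scaling.

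**Figure D2:**
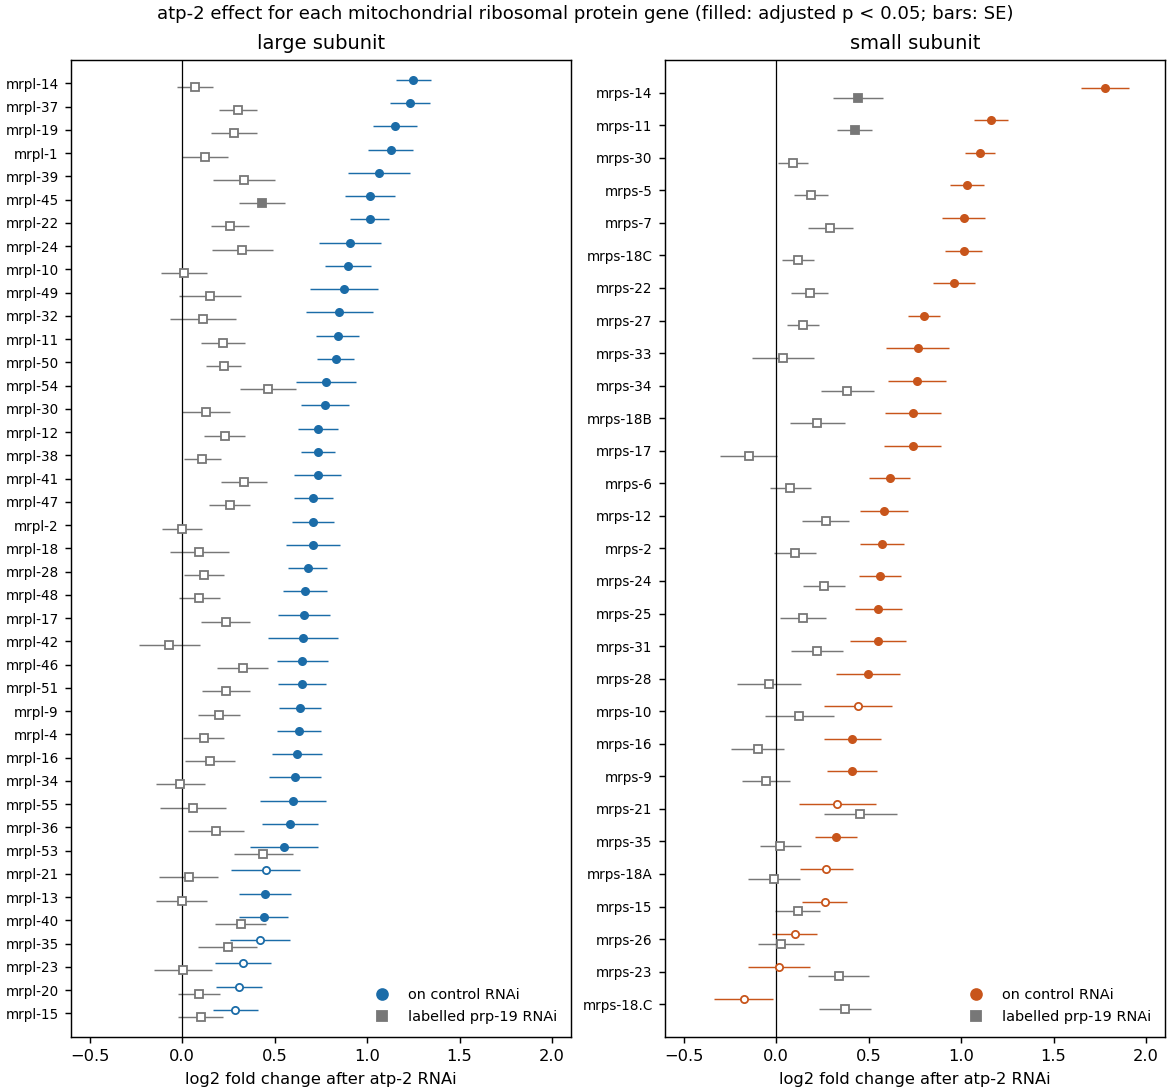
Log2 fold change after atp-2 RNAi for each of the 41 large subunit and 29 small subunit genes, on control RNAi (circles) and in the prp-19-labelled libraries (squares); bars are SE and filled symbols have an edgeR adjusted p under 0.05. Of the 70 genes, 58 have a filled circle and 3 a filled square.

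In the prp-19-labelled libraries, 3 of the 70 genes rose after atp-2 RNAi and 0 fell, while over all genes tested 5.06% rose, 4.72% fell and 9.77% were called in either direction. The 3 genes were mrps-14, mrps-11 and mrpl-45. The median log2 change was 0.15 over the large and 0.14 over the small subunit, against -0.003 over all genes, and 61 of the 70 changes were above 0. The medians were 0.25 and 0.22 without replicate 3 of the prp-19-labelled libraries, and 0.07 each with library totals. Libraries did not overlap upward for 20 genes, and downward for 0, with 12.9% and 11.6% of all genes tested doing so. mrps-14 had 17.2, 15.8 and 19.4 CPM without and 27.3, 24.1 and 19.8 CPM with atp-2 RNAi, a log2 change of 0.44 (SE 0.13, edgeR adjusted p = 0.0418). Its groups did not overlap, by a margin of less than 1 CPM.

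mrps-11 had 14.2, 15.5 and 16.0 CPM without and 20.0, 21.9 and 19.5 CPM with atp-2 RNAi (log2 0.42, SE 0.10, edgeR adjusted p = 0.00774). mrpl-45, whose human counterpart anchors the large subunit to the inner mitochondrial membrane, had 10.4, 11.8 and 12.6 CPM without and 13.5, 16.9 and 16.5 CPM with it (log2 0.43, SE 0.12, edgeR adjusted p = 0.0319). The largest change of the large subunit was that of mrpl-54, at 0.46 (SE 0.15, edgeR adjusted p = 0.0605), and mrpl-53 was at 0.44 (SE 0.16, edgeR adjusted p = 0.0954). At the other end lay mrps-17 at -0.15 (SE 0.15, edgeR adjusted p = 0.623) and mrpl-42 at -0.07 (SE 0.17, edgeR adjusted p = 0.855), with groups that overlapped. How many genes rose changed with single libraries, to 13 without replicate 3 of the prp-19-labelled libraries and to 1 without their replicate 1, without their replicate 2, or without replicate 2 of those with both labels. mrps-14 was not called in 11 of 18 alternatives, mrpl-45 in 7 and mrps-11 in 2. The count of genes that rose was also 1 with DESeq2, and 0 with library totals or with only these groups in the fit. Of all genes, these runs called 3.98%, 7.41% and 4.38% in either direction, in that order.

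The difference between the atp-2 changes was tested directly as an interaction, the log2 change in the prp-19-labelled libraries minus that on control RNAi. It was called below 0 for 32 of the 70 genes and above 0 for 0, against 9.14% below, 10.1% above and 19.3% in either direction over all genes tested. The 32 were 21 of 41 large and 11 of 29 small subunit genes, with medians of -0.56 and -0.47 over each subunit and -0.03 over all genes. All 32 were also among the 58 that rose on control RNAi. The interaction subtracts that same change, so the overlap is not independent of it. Called or not, 67 of the 70 interactions were below 0, as were 6817 of the 12850 over all genes tested. The count of called interactions was 20 with DESeq2 and 60 with library totals, where the median of all genes shifts to -0.38. Of all genes, these runs called 7.85% and 31.2% in either direction. Beside this difference stands the smaller fall of the atp-2 transcript in the prp-19-labelled libraries, and its part in the interaction was not tested.

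The lowest interactions were those of mrps-14 at -1.34 (SE 0.19, edgeR adjusted p = 5.05e-05) and of mrpl-14 at -1.18 (SE 0.14, edgeR adjusted p = 5.79e-06). mrpl-14 had 23.6, 20.2 and 18.5 CPM in the prp-19-labelled libraries and 22.1, 22.1 and 21.1 CPM in those with both labels, so its rise of over 2-fold on control RNAi had no counterpart there. mrps-30, whose human counterpart sits in the large subunit despite its name, stood at -1.01 (SE 0.12, edgeR adjusted p = 5.76e-06). It went from 25.3, 27.3 and 27.7 CPM to 59.2, 55.6 and 57.5 CPM with atp-2 RNAi on control RNAi, and from 28.5, 27.3 and 28.2 CPM to 31.4, 30.2 and 27.9 CPM in the prp-19-labelled libraries. The first pair of groups was widely separated and the second overlapped.

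mrpl-1, the counterpart of a bacterial protein on the flank of the large subunit where spent tRNA leaves, stood at -1.003 (SE 0.17, edgeR adjusted p = 0.000414). It had 15.1, 14.0 and 17.3 CPM on control RNAi, 35.9, 31.8 and 33.6 CPM with atp-2 RNAi, 18.3, 13.6 and 16.4 CPM in the prp-19-labelled libraries and 17.3, 19.4 and 16.0 CPM with both labels. The second group alone was raised. mrpl-1 overlaps emc-6 in the annotation, which the counts may not separate. mrps-5 had an interaction of -0.84 (SE 0.13, edgeR adjusted p = 0.000129), with 26.3, 22.6 and 25.5 CPM in the prp-19-labelled libraries and 27.2, 28.2 and 29.1 CPM with both labels.

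At the upper end mrps-18.C had an interaction of 0.55 (SE 0.21, edgeR adjusted p = 0.0826) and mrps-23 one of 0.32 (SE 0.23, edgeR adjusted p = 0.375). The highest of the large subunit were mrpl-53 at -0.11 (SE 0.24, edgeR adjusted p = 0.802) and mrpl-40 at -0.12 (SE 0.19, edgeR adjusted p = 0.711). None of these 4 was called, but mrps-18.C was called without replicate 3 of the prp-19-labelled libraries, at 0.675 (edgeR adjusted p = 0.0253), and its adjusted p ran from 0.0253 to 0.494 over 17 alternatives.

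Without atp-2 RNAi the prp-19-labelled libraries differed from control RNAi in 14 of the 70 genes, 6 higher and 8 lower, while 30.0% of all genes tested were higher and 28.5% lower. By subunit, 4 large and 2 small subunit genes were higher and 5 large and 3 small were lower, and the medians were -0.07 and -0.06 against 0.06 over all genes. Libraries did not overlap for 10 genes upward and 10 downward, with 31.0% and 29.2% of all genes tested doing so. This split depends on the scaling: with library totals 45 genes were higher and 0 lower, with the median of all genes at 0.54 and the subunit medians at 0.42 each. Of all genes, 69.8% were called in either direction with library totals. Relative to the median of all genes, the large subunit median was -0.13 with either scaling and the small subunit median -0.12. DESeq2 called 7 of the genes, and 9 were called without replicate 2 or without replicate 3 of control RNAi. Of all genes, these runs called 26.7%, 52.8% and 51.9% in either direction, in that order.

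The largest rises were those of mrps-18C and mrps-22. mrps-18C, one of several worm genes related to a bacterial small subunit protein, had 16.6, 18.1 and 16.6 CPM on control RNAi and 34.8, 30.2 and 30.5 CPM in the prp-19-labelled libraries (log2 0.90, SE 0.10, edgeR adjusted p = 2.46e-07). mrps-22, whose human counterpart is found in mitochondrial ribosomes alone, had 11.3, 10.3 and 13.6 CPM and 20.2, 19.2 and 20.8 CPM (log2 0.77, SE 0.12, edgeR adjusted p = 1.49e-05). Both genes were lowest on control RNAi, and the values of the other 3 groups lay close together. With atp-2 RNAi on control RNAi mrps-18C stood at 35.4, 35.0 and 32.8 CPM and with both labels at 36.5, 34.2 and 33.0 CPM. mrps-22 stood at 22.2, 22.9 and 23.4 CPM and at 21.0, 23.3 and 23.7 CPM in these groups. Their interactions were -0.89 (SE 0.13, edgeR adjusted p = 7.81e-05) and -0.78 (SE 0.15, edgeR adjusted p = 0.00134).

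Of the large subunit, mrpl-21 was higher by 0.56 (SE 0.18, edgeR adjusted p = 0.0135) and mrpl-42 by 0.55 (SE 0.19, edgeR adjusted p = 0.0181) on the log2 scale, both at levels under 12 CPM. The groups overlapped for mrpl-21 and did not for mrpl-42, which overlaps lpl-1 in the annotation. Each of these calls was lost in 4 of 18 alternatives, DESeq2 among them, with adjusted p up to 0.0982 for mrpl-21 and 0.088 for mrpl-42. The remaining genes that were higher were mrpl-37 and mrpl-45. mrpl-47 was lower, with 24.8, 24.5 and 23.8 CPM on control RNAi and 14.3, 17.3 and 19.1 CPM in the prp-19-labelled libraries (log2 -0.53, SE 0.11, edgeR adjusted p = 0.000586). mrpl-38 was lower by the same amount, with 24.0, 20.4 and 21.7 against 15.4, 15.3 and 15.3 CPM (log2 -0.53, SE 0.10, edgeR adjusted p = 0.000205). No library labelled prp-19 RNAi reached a control library for either gene.

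The lowest changes of the small subunit were those of mrps-11 at -0.45 (SE 0.10, edgeR adjusted p = 0.000806) and mrps-26 at -0.40 (SE 0.12, edgeR adjusted p = 0.0101). With library totals both changes were above 0, at 0.03 and 0.08. mrps-26 stands out from mrps-11 in its atp-2 change: it had 15.1, 15.6 and 19.2 CPM on control RNAi and 16.5, 18.6 and 18.4 CPM with atp-2 RNAi, with no call (log2 0.10, SE 0.12, edgeR adjusted p = 0.568). Its level in the prp-19-labelled libraries was 13.3, 11.3 and 13.3 CPM without and 12.9, 12.1 and 13.4 CPM with atp-2 RNAi, below every library on control RNAi.

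With atp-2 RNAi in both groups, 53 of the 70 genes were lower in the prp-19-labelled libraries and 1 was higher, while 26.5% of all genes tested were lower and 26.5% higher. Lower were 32 of 41 large and 21 of 29 small subunit genes. Medians were -0.54 and -0.47, against 0.03 over all genes, and libraries did not overlap downward for 57 genes and upward for 1, with 31.5% and 32.2% of all genes tested doing so. The libraries with atp-2 RNAi on control RNAi enter both this comparison and the first, so a high level there gives a rise in one and a fall in the other. For 64 of the 70 genes that group had the highest mean of the 4, and for the other 6 the group with both labels had it. The atp-2 transcript was higher with both labels than with atp-2 RNAi on control RNAi (log2 0.92, SE 0.09, edgeR adjusted p = 3.18e-08). The part of this difference in the comparison was not tested.

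The lowest values were again those of mrps-14 at -1.43 (SE 0.12, edgeR adjusted p = 7.27e-09), mrpl-14 at -1.26 (SE 0.09, edgeR adjusted p = 7.85e-10) and mrps-11 at -1.19 (SE 0.09, edgeR adjusted p = 8.76e-10). mrpl-38 followed at -1.15 (SE 0.09, edgeR adjusted p = 3.19e-09). It is one of 8 genes, 5 of the large and 3 of the small subunit, that were lower in the prp-19-labelled libraries both with and without atp-2 RNAi, as were 19.3% of all genes tested. The 1 gene that was higher was mrps-18.C, with 7.43, 6.64 and 7.49 CPM against 10.1, 11.8 and 10.1 CPM (log2 0.57, SE 0.15, edgeR adjusted p = 0.00282). No library of one group reached the other. At the top of the large subunit were mrpl-53 at 0.19 (SE 0.16, edgeR adjusted p = 0.328) and mrpl-21 at 0.14 (SE 0.16, edgeR adjusted p = 0.487).

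**Figure D3:**
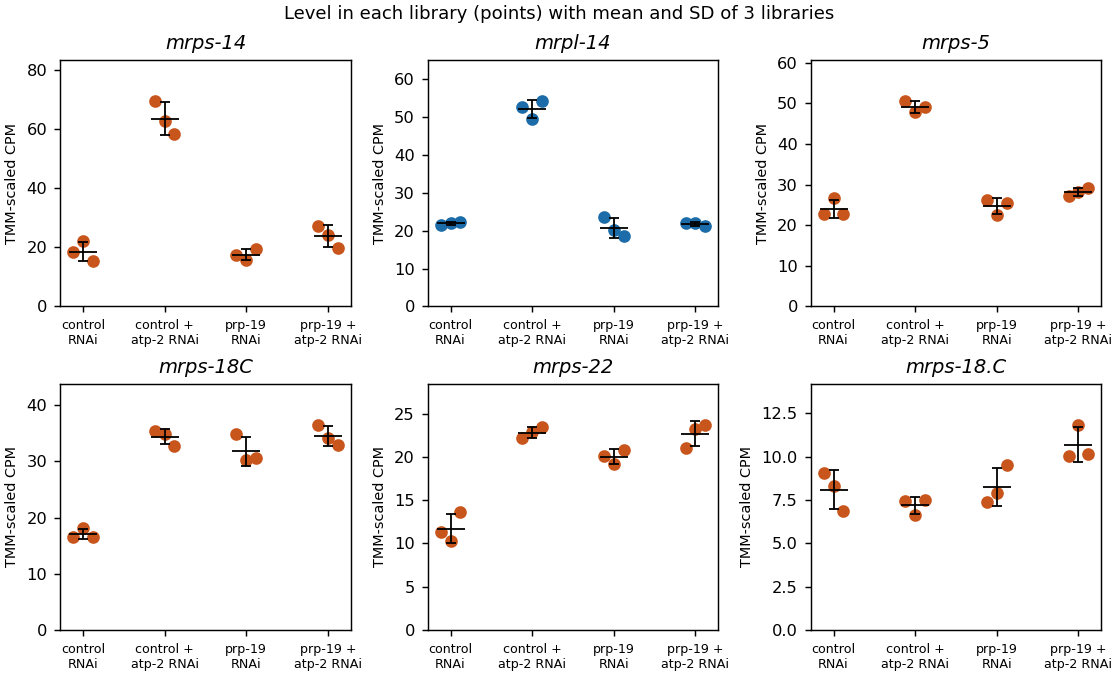
Level of 6 genes in each library (points, TMM-scaled CPM) with the mean and SD of the 3 libraries of each group. mrps-14, mrpl-14 and mrps-5 are high in 1 group, mrps-18C and mrps-22 are low in 1 group, and mrps-18.C is highest with both labels.

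The atp-2 change was described by origin as well, using human counterparts of the same name. Of 38 genes with a counterpart in bacterial ribosomes, 30 rose on control RNAi, with a median log2 change of 0.65. Of 24 genes whose counterparts occur in mitochondrial ribosomes alone, 22 rose, with a median of 0.73, and the remaining 8 genes were not assigned. None of the assigned genes fell, while 17.0% of all genes tested rose and 17.1% fell. The ranges overlapped widely, at 0.26 to 1.78 and 0.02 to 1.23. In the prp-19-labelled libraries the medians were 0.12 and 0.22, and the median interactions were -0.53 and -0.49.

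Across the 70 genes the log2 atp-2 changes on control RNAi and in the prp-19-labelled libraries, which share no library, had a Pearson r of 0.26. The changes between the labelled prp-19 and control libraries without and with atp-2 RNAi, which also share none, had an r of 0.54. These are descriptions across genes, which are not independent replicates. The atp-2 change on control RNAi also went with abundance, with an r of 0.45 against log2 mean CPM, which shares its libraries.

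**Figure D4:**
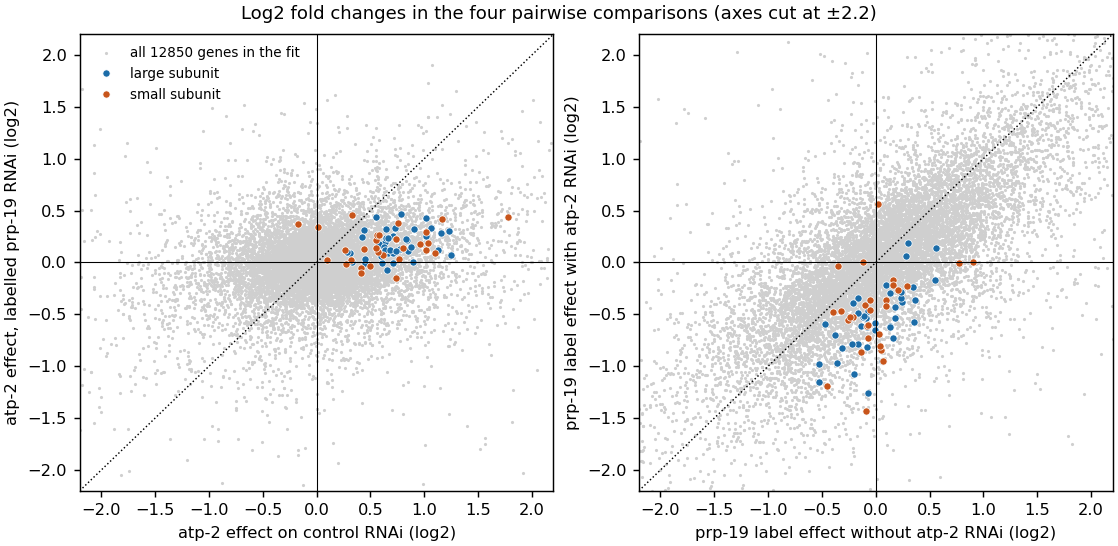
Log2 fold changes of all 12850 genes tested (grey) and of the large and small subunit genes (coloured), with the atp-2 effect in the prp-19-labelled libraries against that on control RNAi (left) and the effect of the prp-19 label with against without atp-2 RNAi (right). The dotted line marks equal changes; 67 of the 70 genes have an atp-2 change closer to 0 in the prp-19-labelled libraries.

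Levels per length were compared on the scale of mean CPM over all 12 libraries per kilobase of exon. They ran from 4.86 to 41.9 with a median of 17.7, an 8.61-fold range. Within a group the highest gene was 6.89-fold above the lowest on control RNAi, 14.8-fold with atp-2 RNAi, 5.34-fold in the prp-19-labelled libraries and 6.21-fold with both labels. The highest of the small subunit were mrps-14 at 41.9, mrps-11 at 33.8 and mrps-12 at 26.0 CPM per kilobase, the last the counterpart of a bacterial protein of the decoding site. In the large subunit mrpl-9 at 29.0, mrpl-47 at 27.4 and mrpl-50 at 26.4 CPM per kilobase were highest. This order is of means over groups that differ. On control RNAi alone mrps-11 at 27.3 was above mrps-14 at 25.1, whose level with atp-2 RNAi was 86.3 CPM per kilobase. The highest of the large subunit there were mrpl-47 at 26.3, mrpl-9 at 25.4 and mrpl-23 at 24.8, with mrpl-50 at 20.2 CPM per kilobase. The median over the 70 genes was 14.9 on control RNAi, 22.6 with atp-2 RNAi, 16.0 in the prp-19-labelled libraries and 17.3 with both labels.

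The genes were short and unevenly placed. All 70 matched the annotation, with a median of 755 exonic bases and 3 introns, against 1440 bases and 5 introns over 12224 protein-coding genes in the test. Chromosome III held 21 of them, 30.0% against 16.5% of protein-coding genes tested, and chromosome X held 0, against 15.1%. A protein-coding gene on the same strand lay within 500 bases for 43 of the 70, or 61.4%, against 35.1% of protein-coding genes tested, a spacing that occurs within operons, although operons were not read from the annotation.

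The 51 such neighbours without an mrpl- or mrps- symbol included dap-3 of the small mitochondrial subunit. They had a median log2 atp-2 change of 0.13 on control RNAi, with 9 higher and 6 lower (8 and 6 of 50 without dap-3). Over all genes tested 17.0% were higher and 17.1% lower. The gene with an mrpl- or mrps- symbol had the higher change in 45 of 51 pairs. With atp-2 RNAi in both groups, 18 neighbours were higher and 15 lower in the prp-19-labelled libraries, with a median of 0.07. Over all genes tested 26.5% were higher and 26.5% lower. Within the set, mrps-2 and mrpl-4 lie 105 bases apart on chromosome V, and their log2 atp-2 changes were 0.57 and 0.63 on control RNAi and 0.10 and 0.12 in the prp-19-labelled libraries. mrps-22 lies 105 bases from dap-3, which encodes another protein of the small mitochondrial subunit without an mrps- symbol. Like mrps-22, dap-3 rose after atp-2 RNAi on control RNAi, by 1.08 (SE 0.10, edgeR adjusted p = 1.12e-07), and its atp-2 change in the prp-19-labelled libraries was 0.13 (SE 0.09, edgeR adjusted p = 0.415). Without atp-2 RNAi, dap-3 was higher by 0.74 with the prp-19 label than on control RNAi (SE 0.11, edgeR adjusted p = 6.59e-06). These pairs were chosen after their values were seen. Of the 70 genes, 21 overlap another protein-coding gene, 15 of them on the opposite strand.

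Other genes of mitochondrial gene expression, a list of 46 symbols of which 30 were found and tested, gave 23 higher and 0 lower after atp-2 RNAi on control RNAi, with a median of 0.89. Of all genes tested, 17.0% were higher and 17.1% lower. gfm-1, a mitochondrial elongation factor, had a log2 change of 2.12 (SE 0.09, edgeR adjusted p = 1.46e-12), above that of every mitochondrial ribosomal protein gene. In the prp-19-labelled libraries 7 of the 30 rose and 0 fell, with a median of 0.23, against 5.06% and 4.72% of all genes tested. Interactions were called below 0 for 17 and above 0 for 1, against 9.14% and 10.1% of all genes. The 1 above was mthf-1 at 0.38 (SE 0.11, edgeR adjusted p = 0.0256). mthf-1 encodes a folate cycle enzyme, methylenetetrahydrofolate reductase, and not a factor of mitochondrial gene expression. Without it 6 of 29 rose in the prp-19-labelled libraries, and interactions were called below 0 for 17 and above 0 for 0. Without atp-2 RNAi 8 of the 30 were higher and 6 lower in the prp-19-labelled libraries, with a median of 0.15. These counts are not above the shares of all genes tested, 30.0% higher and 28.5% lower. With atp-2 RNAi in both groups 1 was higher and 19 were lower, with a median of -0.60, against 26.5% each way. The 1 higher gene was hars-1, at 0.81 (SE 0.09, edgeR adjusted p = 1.51e-07), which was also higher without atp-2 RNAi, at 0.90. hsp-6 and hsp-60, the mitochondrial chaperone genes read as markers of the mitochondrial unfolded protein response, rose by 1.34 (SE 0.08) and 1.55 (SE 0.12) on control RNAi and by 0.73 (SE 0.08) and 1.08 (SE 0.12) in the prp-19-labelled libraries.

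The 77 cytosolic ribosomal protein genes that were tested encode the ribosomes of the cytosol. After atp-2 RNAi on control RNAi 3 rose and 19 fell, with a median log2 change of -0.13, and in the prp-19-labelled libraries 7 rose and 0 fell, with a median of 0.14. Of all genes tested, 17.0% rose and 17.1% fell in the first comparison, and 5.06% rose and 4.72% fell in the second. Without atp-2 RNAi 53 were higher and 1 lower in the prp-19-labelled libraries, with a median of 0.23, and with it 74 were higher and 0 lower, with a median of 0.52. Of all genes tested, 30.0% were higher and 28.5% lower without atp-2 RNAi, and 26.5% each way with it. Their interactions were called above 0 for 29 and below 0 for 2, against 10.1% and 9.14% of all genes tested. No test of one list against the other was made.

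**Figure D5:**
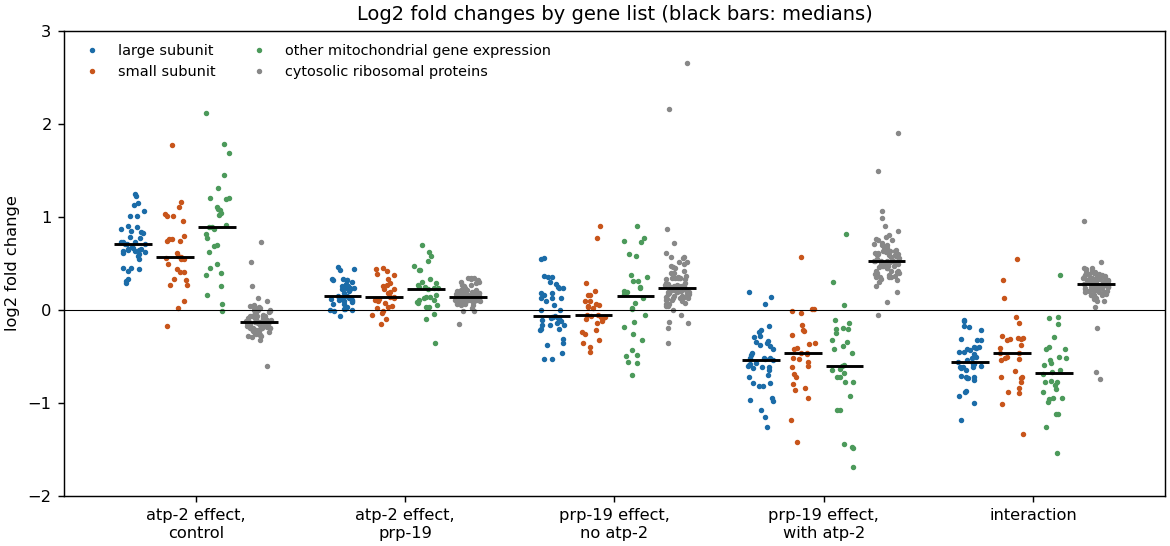
Log2 fold changes of single genes (points) and their median (black bar) for the large and small mitochondrial subunits, the cytosolic ribosomal proteins and other mitochondrial gene expression genes in the 5 comparisons. After atp-2 RNAi on control RNAi the medians are 0.71 and 0.57 for the mitochondrial subunits and -0.13 for the cytosolic genes.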

How the data were processed

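The authors deposited 1 table of raw read counts per gene for 12 libraries of polyA RNA, whose columns carry the sample titles. The submitters' processing notes name FastQC, STAR 2.7.5c, HISAT2 2.1.0, R 4.0.5 and DESeq2 and the build WBcel235 (ce11), with no role given. The sources used here do not state how reads were counted or whether strand was used.

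The count table was tested with edgeR 4.0.16 (R 4.3.3): filterByExpr by group, TMM factors, and a robust quasi-likelihood fit with 1 coefficient per group over all 12 libraries and 8 residual degrees of freedom. A call is a Benjamini-Hochberg adjusted p under 0.05 over the 12850 genes tested. The SE is the absolute log2 change over the square root of the F statistic. Recovery of changed genes was tested on simulated counts for the atp-2 comparison on control RNAi only, with 200 genes changed. Coordinates, exons and neighbours came from Ensembl release 115 (WBcel235). The counting error covers the sampling of reads only.

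The genes, the lists (cytosolic ribosomal proteins, other mitochondrial gene expression, tissue markers, origin of the protein) and the comparisons were chosen with earlier results of these data known. Named genes are the RNAi targets, mrps-5, in each of 5 comparisons and each subunit the 2 highest and 2 lowest log2 changes among genes averaging at least 5 CPM, and the 3 highest per exonic length in each subunit. Any other gene was named after its values were seen. Libraries with the same replicate number did not deviate together, so the numbers were not used to pair samples.

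Alternatives were RLE size factors, library totals, DESeq2 1.42.0, omission of the low-count filter, a replicate block, only the groups compared, and leaving out each library. Added after the data were seen were mrps-30 and mrps-18A counted as large subunit genes, and leaving out genes that overlap another.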

Additional observations from a re-analysis of the deposited data

Results flagged for a closer look

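For 5 of the genes chosen by the naming rule, the log2 atp-2 change differed between the prp-19-labelled libraries and those on control RNAi. This was the interaction test of edgeR, with adjusted p-values over 12850 genes. The differences were -1.34 for mrps-14 (adjusted p = 5.05e-05), -1.18 for mrpl-14 (adjusted p = 5.79e-06), -1.01 for mrps-30 (adjusted p = 5.76e-06), -1.003 for mrpl-1 (adjusted p = 0.000414) and -0.84 for mrps-5 (adjusted p = 0.000129). All but mrps-5 were picked for having the 2 lowest interactions of their subunit, so these values are not independent of the choice. Other genes named by the rule were called too, among them mrpl-37 at -0.93 and mrps-18C at -0.89. In each of the 5 genes every library with atp-2 RNAi on control RNAi was above every library without it. That separation was also seen in 64 of the 70 genes and in 25.3% of all genes tested. The interaction is computed from these same libraries, so the separation is not independent of the choice either. The prp-19-labelled libraries with and without atp-2 RNAi did not overlap in the same way for mrps-14 and mrps-5, and overlapped for the other 3. They did not overlap upward for 20 of the 70 genes and 12.9% of all genes tested.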

How the results depend on the processing

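The counts of genes called after atp-2 RNAi on control RNAi (58; 52 to 59 when each library was left out) and for the prp-19 label with atp-2 RNAi (54; 49 to 57) stayed within 1.5 times under every alternative run. Of all genes, 34.1% and 53.0% were called in either direction for these comparisons. The shares were 27.5% to 38.4% and 46.4% to 56.1% when each library was left out. For atp-2 RNAi in prp-19-labelled libraries (3) the count was 0 with library totals, 1 with DESeq2, 0 with only the groups compared and 1 to 13 on leaving out each library. For the prp-19 label without atp-2 RNAi (14) it was 45 with library totals, 7 with DESeq2 and 9 to 14, and for the interaction (32) it was 60 with library totals, 20 with DESeq2 and 22 to 29. The large subunit part of the interaction count, 21, was 13 without replicate 1 of control RNAi, where 16.6% of all genes were called. With a replicate block the counts were 58, 3, 13, 53 and 28. Deviations of libraries with the same number correlated at -0.105 to 0.1195, so no shared deviation was seen. Whether libraries with the same number were prepared together cannot be told from this.

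For the prp-19 label without atp-2 RNAi, the large subunit median changed sign to 0.416 with library totals and ran from -0.0751 to 0.0471 on leaving out each library. The small subunit median was 0.424 with library totals and 0.0206 without genes that overlap another, and ran from -0.0967 to 0.00473. There mrps-11 was 0.0274 and mrps-26 0.0824 with library totals, and mrps-5 ran from -0.0190 to 0.111. In the atp-2 change on control RNAi mrps-18.C was 0.0906 with library totals, and mrps-23 was -0.00699 with RLE size factors and -0.0122 with DESeq2 and ran from -0.196 to 0.129. In prp-19-labelled libraries mrpl-34 was 0.000475 without the filter and ran from -0.0816 to 0.0771, and mrpl-42 ran from -0.222 to 0.0265. The interaction of mrps-23 was -0.0198 with library totals, and those of mrpl-53 and mrpl-40 ran from -0.259 to 0.0179 and from -0.233 to 0.0416. For the prp-19 label with atp-2 RNAi mrps-18C was -0.00948 with RLE size factors, -0.0113 with DESeq2 and -0.00539 without the filter, and ran from -0.0384 to 0.0363. Library totals shift all genes as given above, and the other causes were not tested.

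Counts of 23 to 608 per gene and library limit the change that can be detected.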
